A study of Oryctolagus cuniculus with 20 samples.

Results

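Serotonin-treated tricuspid valves were compared with untreated ones, 5 valves against 5, which makes 10 of the 20 valves that were sequenced. Members were taken from the sample names, as the valves titled Serotonin 1 to 5 and Control 1 to 5. The study asked how valve lesions brought about by long-term serotonin differ, at the level of RNA, from those brought about by drugs that act on serotonin signalling. All animals were female New Zealand White rabbits, 8 weeks old when treatment began, and each treatment lasted 16 weeks. Serotonin was given at 80 mg/kg per day in the drinking water and control rabbits drank water alone. The other 10 valves, 5 from rabbits given pergolide at 0.5 mg/kg per day and 5 from rabbits given dexfenfluramine at 20 mg/kg per day by the sample labels, entered the same fit and gave a direct contrast with serotonin. For dexfenfluramine the study's methods also give 20 mg/kg per day, while its results text gives 10. The measurement was the number of RNA-seq reads on each gene, in libraries depleted of ribosomal RNA.

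Serotonin reaches heart valves from the blood, where platelets carry most of it, and signals in valve cells through receptors coupled to G proteins, of which the 2B receptor is the best known in this tissue. It is taken up by transporters and broken down by monoamine oxidase and aldehyde dehydrogenase. A valve leaflet is a thin sheet of collagen, proteoglycan and elastic layers kept up by interstitial cells and covered by endothelium, and at its hinge it joins cardiac muscle.

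Total counts were 4206516, 4492621, 4573978, 5831376 and 5510128 in control valves 1 to 5, and 3890579, 4797371, 3526853, 4880440 and 3651289 in serotonin valves 1 to 5. The group means did not differ beyond the spread between valves (two-sided exact permutation test, p = 0.103), and neither did the number of genes with a count, with means of 10865 and 10878 (exact permutation p = 0.913). ENSOCUG00000029084, which has no symbol, held 42.0, 40.4, 28.5, 48.1 and 44.3% of the counts in the controls and 29.6, 39.4, 37.1, 39.1 and 34.5% in the serotonin valves (exact permutation p = 0.238). Control 3 was the lowest of its group and lay below every serotonin valve.

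Cardiomyocyte transcripts were present in every valve, at unequal levels. The 24 tested cardiomyocyte markers, of 34 listed, summed to 153707, 116011, 54823, 165325 and 106409 CPM (counts scaled to a fixed size of the normalized library) in control valves 1 to 5, and to 58648, 114377, 66319, 106292 and 70376 CPM in serotonin valves 1 to 5. Controls 1 and 4 were highest and control 3 was lowest of all 10 valves, so the groups overlapped. The giant sarcomere protein gene TTN made up 62.5% of the sum. On the first principal component, which held 29.8% of the variance over the 500 most variable genes, controls 1 and 4 had scores of -18.3 and -19.2, while the other controls had -3.92, 9.11 and -4.36 and the serotonin valves had 13.4, -2.03, 10.0, 3.50 and 11.8. Controls 1 and 4 therefore stood apart from the other 8 valves, and control 3 lay among the serotonin valves. The 14 tested markers of interstitial cells and fibroblasts, of 23 listed, summed to 10116, 9662, 11368, 6839 and 8719 CPM in the controls and to 10443, 8194, 11784, 9789 and 10899 CPM in the serotonin valves, with the filament gene VIM at 27.9% of the sum. The lowest sum was that of control 4. No marker that had a symbol was at 0 counts over the 10 valves. Symbols come only from the study's list of differentially expressed genes, which need counts, so this does not show which cell types are present. In bulk tissue, fewer cells of a type and less RNA per cell cannot be told apart.

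**Figure D1:**
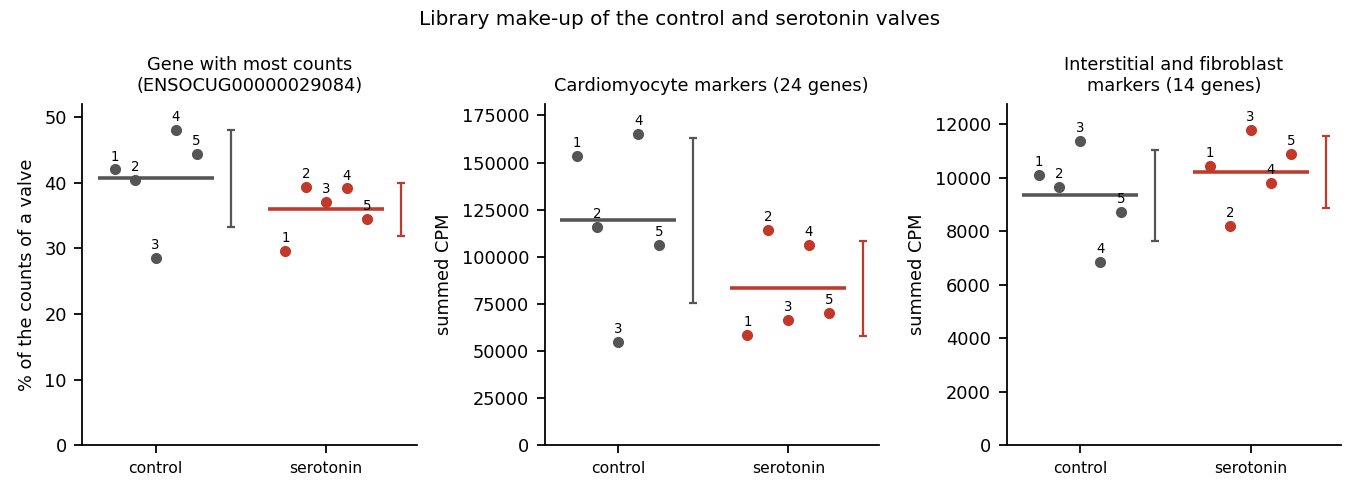
Each point is a valve, numbered by replicate, the horizontal line is the mean of the 5 valves and the bar at the side is the SD. The left panel gives the share of counts on the gene with most counts in percent, and the other panels give the summed CPM of cardiomyocyte markers and of interstitial cell and fibroblast markers; controls 1 and 4 are high and control 3 low for cardiomyocyte markers, and the groups overlap in each panel.

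Of 55 tested genes for ribosomal proteins 8 rose and 0 fell in serotonin valves, of 20 for elastic fibre proteins and matrix glycoproteins 4 rose and 0 fell, and of 10 circadian clock genes 1 rose and 2 fell. No test of enrichment was made for these lists. RPS27 rose by 1.12 on the log2 scale, the elongation factor gene EEF1B2 by 0.79 and the collagen gene COL14A1 by 0.75. The clock genes ARNTL and NFIL3 fell by 2.59 and 2.04, and the clock repressor NR1D2 rose by 0.87. Of 8683 tested genes, 103 (1.19%) passed an adjusted p of 0.05, with 90 higher (1.04%) and 13 lower (0.150%). Calls and adjusted p-values throughout are from edgeR's quasi-likelihood test with Benjamini-Hochberg adjustment over all tested genes. At an unadjusted p under 0.05 there were 1372 genes (15.8%), 866 higher (9.97%) and 506 lower (5.83%). In 231 genes (2.66%) the groups did not overlap, with all serotonin valves higher in 178 (2.05%) and all lower in 53 (0.610%).

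The number of called genes moved with the valves in the fit and with the tool. The 10 valves fitted alone, without the drug valves, gave 0 called genes, with a smallest adjusted p of 0.0696 and 1117 genes at an unadjusted p under 0.05, and the replicate number as a block left RPS27 alone (adjusted p = 0.0450). DESeq2 called 234 of the 8683 genes, 182 higher and 52 lower, among them all 103. Limma-voom called 114, of which 92 were shared, and limma-voom with surrogate variables called 107, of which 36 were shared. Of genes described below, RPL37A, RPL36, RPL28, ESF1, RSL24D1, SLU7, NRXN3, SNORA68, HIST2H2AA4 and CPED1 lost their calls with surrogate variables (adjusted p = 0.110, 0.113, 0.112, 0.0765, 0.104, 0.122, 0.122, 0.224, 0.0581 and 0.126), as did matrix and clock genes given further on, and ARNTL, NFIL3 and SNORA68 lost theirs in limma-voom without them (0.0885, 0.0619 and 0.0952). EdgeR's count was 53 with DESeq2's size factors, 48 without a filter on low counts and 37 without ENSOCUG00000029084 in the library sizes, the last chosen after seeing the data. Left out 1 at a time, control 2, control 5 and serotonin 1 each brought edgeR's count to 0, with 1183, 1255 and 1106 genes at an unadjusted p under 0.05. The count was 3 without control 4, 4 without serotonin 2, 21 without serotonin 4, 50 without serotonin 5 and 257 without control 3. Without controls 1 and 4 together, an alternative chosen after seeing the data, 70 genes were called and 35 were shared with the 103. Without dexfenfluramine 3, also chosen after seeing the data, 161 genes were called, 127 higher and 34 lower, among them all 103. Of genes described below that missed the threshold with all valves, RPL11, NCL, TIMP1, ALDH2, ENO1, PPARG, KLB, CALD1 and CCL21 passed it in that fit (adjusted p = 0.0464, 0.0493, 0.0498, 0.0425, 0.0493, 0.0493, 0.0308, 0.0465 and 0.0280). In each of those fits all of the 103 genes that were tested had the same sign of fold change, which were 100 genes in the 10 valves alone and 103 in the others.

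Symbols were at hand for 3519 tested genes. They come from the study's list of differentially expressed genes, which was drawn from these same valves. Counts, medians and levels over genes with a symbol are therefore not independent evidence of change. Among them 70 genes (1.99%) were called, 63 higher (1.79%) and 7 lower (0.199%), and at an unadjusted p under 0.05 13.7% were higher and 6.28% lower.

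**Figure D2:**
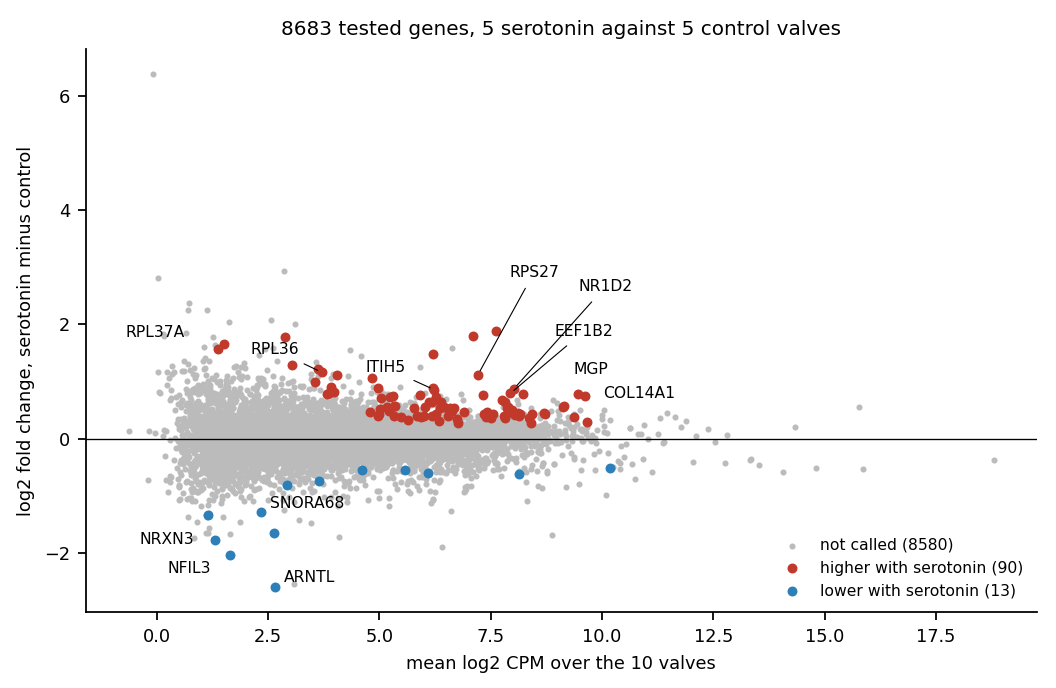
Each point is a tested gene, with its mean log2 CPM over the 10 valves on the horizontal axis and its log2 fold change, serotonin minus control, on the vertical axis. Red points are the 90 genes called higher and blue points the 13 called lower, and ARNTL, NFIL3 and NRXN3 are among the falls of largest size.

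Cytosolic ribosomal proteins build the ribosome's subunits, and 55 of the 83 listed genes were tested. Their mean log2 CPM was 5.82, 5.72, 5.72, 5.62 and 5.67 in control valves 1 to 5 and 5.998, 6.04, 5.93, 6.03 and 6.04 in serotonin valves 1 to 5. Each serotonin valve lay above each control. These genes have a symbol only because the study listed them as differentially expressed in this series, so the separation is not independent evidence of a rise. Of the 55 genes, 8 rose and 0 fell by edgeR, against 1.79% and 0.199% of all tested genes with a symbol. DESeq2 called 13 higher and 1 lower, beside 182 and 52 of all 8683 tested genes. That pool takes in genes without a symbol, unlike the shares given for edgeR and for the unadjusted p. At an unadjusted p under 0.05, 24 were higher and 2 lower, beside 13.7% and 6.28% of tested genes with a symbol. The median log2 fold change was 0.25, beside 0.01 over all tested genes and 0.03 over those with a symbol, and ranged from 0.18 to 0.26 over the alternatives. In 9 of the 55 all serotonin valves were above all controls, while groups failed to overlap in 3.86% of tested genes with a symbol, and with the serotonin valves above in 3.15%.

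RPS27, of the small subunit, was at 140.0, 90.5, 109, 74.4 and 96.0 CPM in control valves 1 to 5 and at 256, 251, 193, 187 and 218 CPM in serotonin valves 1 to 5. The lowest serotonin valve lay well above the highest control, and RPS27 rose by 1.12 ± 0.17 (SE, log2 fold change, adjusted p = 0.0105), the smallest adjusted p among the 8683 genes. Its adjusted p was 0.0602 without control 2, 0.0615 without control 5 and 0.0558 without serotonin 1, and under 0.05 with each of the other 7 valves left out. RPS15A had 302, 203, 225, 196 and 221 CPM in the controls and 418, 504, 327, 366 and 354 CPM in the serotonin valves. Control 1 was highest of its group, still below serotonin 3, and RPS15A rose by 0.78 ± 0.14 (adjusted p = 0.0285). RPL37A, of the large subunit, was at 1.08, 0.813, 1.58, 1.76 and 1.38 CPM in the controls and at 3.49, 4.11, 6.14, 3.22 and 4.78 CPM in the serotonin valves, again without overlap, and rose by 1.66 ± 0.35 (adjusted p = 0.0299). RPL23A was at 83.0, 33.6, 49.0, 40.3 and 29.2 CPM in the controls and at 140.0, 197, 77.7, 107 and 126 CPM in the serotonin valves. Serotonin 3 lay below control 1, and the rise was 1.47 ± 0.30 (adjusted p = 0.0289). RPL36, RPL28 and RPS24 rose by 1.16, 0.77 and 0.56 (adjusted p = 0.0289, 0.0449 and 0.0301), each without overlap between groups.

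RPL11, a large subunit protein, was at 266, 227, 248, 188 and 239 CPM in the controls and at 351, 301, 296, 329 and 338 CPM in the serotonin valves. All serotonin valves were higher, with a log2 fold change of 0.47 ± 0.12 that missed the threshold (adjusted p = 0.0509), and RPL11 passed it without control 1 (0.0401) or control 3 (0.0428) and with DESeq2 (0.0189). The members of the list did not all lean the same way, since 14 of the 55 were below 0. The number of ribosomal protein genes called was 0 without control 2, control 5 or serotonin 1, 1 without control 4 or serotonin 2, 4 without serotonin 4 and 13 without control 1. Ribosomal protein genes have many near-identical copies in a genome, and how reads with several possible positions were counted is not stated, so the value of each gene is uncertain.

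Translation factors start and extend protein chains. Of 32 tested genes, of 51 listed, 1 rose and 0 fell by edgeR, with 1 and 0 by DESeq2 and 4 higher and 2 lower at an unadjusted p under 0.05, beside 13.7% and 6.28% of tested genes with a symbol. The median log2 fold change was -0.05, and 0.03 with surrogate variables in limma-voom. The gene that rose was EEF1B2, which reloads the elongation factor that brings tRNA to the ribosome. It was at 181, 186, 169.8, 258 and 149 CPM in the controls and at 335, 334, 258, 361 and 345 CPM in the serotonin valves. Control 4 and serotonin 3 came next to each other without overlap, and the rise was 0.79 ± 0.14 (adjusted p = 0.0285). Leaving out control 2, control 5, serotonin 1 or serotonin 2 gave an adjusted p of 0.0797, 0.0615, 0.0592 or 0.0545.

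Ribosome biogenesis factors act in the nucleolus, and 36 of 61 listed genes were tested. With edgeR 2 rose and 0 fell, beside 1.79% and 0.199% of tested genes with a symbol. DESeq2 called 4 and 0, beside 182 and 52 of all 8683 tested genes, with or without a symbol. At an unadjusted p under 0.05, 10 were higher and 0 lower, beside 13.7% and 6.28% of those with a symbol. The median log2 fold change was 0.16, with 25 genes above 0 and 11 below. ESF1, needed for making the small subunit RNA, was at 84.8, 82.6, 97.4, 79.7 and 84.7 CPM in the controls and at 128, 158, 97.0, 110.2 and 126 CPM in the serotonin valves. Serotonin 3 and control 3 met, the other valves were apart, and ESF1 rose by 0.53 ± 0.10 (adjusted p = 0.0285). RSL24D1, which joins the young large subunit, rose by 0.49 ± 0.11 (adjusted p = 0.0309) without overlap between groups. NCL, the abundant nucleolar protein nucleolin, had a log2 fold change of 0.45 with an adjusted p of 0.0536. ESF1 lost its call without control 2 (0.0897), control 4 (0.0561), control 5 (0.0615), serotonin 1 (0.0737) or serotonin 2 (0.0636). The number of called biogenesis genes was 0 without each of those 5 valves, 1 without serotonin 4 or serotonin 5 and 5 without control 1.

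Splicing and hnRNP factors, which cut and package pre-mRNA, leaned to higher values. Among 53 tested genes, of 82 listed, 44 had a log2 fold change above 0 and 9 below, with a median of 0.20 that ranged from 0.17 to 0.25 over the alternatives. By edgeR 2 rose and 0 fell, beside 1.79% and 0.199% of tested genes with a symbol. By DESeq2 10 rose and 0 fell, beside 182 and 52 of all 8683 tested genes, with or without a symbol. At an unadjusted p under 0.05, 28 were higher and 1 lower, beside 13.7% and 6.28% of tested genes with a symbol. In 8 of the 53 all serotonin valves were above all controls, beside 3.15% of tested genes with a symbol. RBM25, a regulator of splice site choice, was at 390.3, 324, 368, 372 and 329 CPM in the controls and at 490.4, 566, 409.7, 503 and 450.0 CPM in the serotonin valves. The groups were apart, by little between control 1 and serotonin 3, and RBM25 rose by 0.44 ± 0.09 (adjusted p = 0.0289). SLU7, which helps to choose the 3′ splice site, rose by 0.51 ± 0.12 (adjusted p = 0.0438), also without overlap. The number of called splicing genes was 0 without control 2, control 4, control 5, serotonin 1, serotonin 2 or serotonin 4, 1 without serotonin 5, and 11, 4 and 8 without control 1, control 3 and serotonin 3.

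Among 20 tested genes for elastic fibre proteins and matrix glycoproteins, of 40 listed, 4 rose and 0 fell by edgeR, DESeq2 gave the same numbers, and 5 were higher and 0 lower at an unadjusted p under 0.05. Of tested genes with a symbol 1.79% were called higher by edgeR, and 13.7% were higher at an unadjusted p under 0.05. The median log2 fold change was 0.19, with 16 of 20 above 0, and was 0.09 without controls 1 and 4, 0.12 without control 4 and 0.30 without control 3. MGP encodes matrix Gla protein, an inhibitor of calcification. It was at 817, 421, 509, 475 and 499 CPM in control valves 1 to 5 and at 913, 946, 883, 1105 and 810.3 CPM in serotonin valves 1 to 5. Control 1 stood far above the other controls and just above serotonin 5, and MGP rose by 0.78 ± 0.17 (adjusted p = 0.0348). SVEP1, a large adhesion protein of the extracellular matrix, was at 54.8, 50.1, 60.4, 56.5 and 55.2 CPM in the controls and at 79.0, 71.2, 106, 83.9 and 91.8 CPM in the serotonin valves. The groups were apart with narrow controls, and SVEP1 rose by 0.64 ± 0.13 (adjusted p = 0.0285). ITIH5, of the family that binds hyaluronan, was at 40.4, 67.2, 67.6, 47.9 and 56.4 CPM in the controls and at 91.8, 104, 91.2, 102 and 119.9 CPM in the serotonin valves. It rose by 0.86 ± 0.16 without overlap (adjusted p = 0.0285). FBLN7, a fibulin of basement membranes, rose by 0.88 ± 0.19 (adjusted p = 0.0301), with serotonin 2 at 26.9 CPM among controls that ran up to 28.4 CPM.

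Of the collagens, 15 of 27 listed genes were tested, 1 rose and 0 fell, DESeq2 called 2 and 0, and 5 were higher and 0 lower at an unadjusted p under 0.05. Among tested genes with a symbol the shares were 1.79% called higher by edgeR and 13.7% higher at an unadjusted p under 0.05. The median log2 fold change was 0.31, with 13 above 0 and 2 below, and was 0.17 without controls 1 and 4 and 0.16 with surrogate variables in limma-voom. COL14A1, a collagen that sits on the surface of fibrils, was at 516, 598, 644, 597 and 702 CPM in the controls and at 899, 1008, 926, 1264 and 1034 CPM in the serotonin valves. Every serotonin valve was higher than every control, and COL14A1 rose by 0.75 ± 0.15 (adjusted p = 0.0285). COL4A4, of basement membrane collagen, had a log2 fold change of 0.64 (adjusted p = 0.0618). COL1A2, a chain of the main fibril collagen, was at 469.7, 563, 771, 584 and 483 CPM in the controls and at 812, 654, 707, 1009 and 707 CPM in the serotonin valves. Control 3 lay above 3 of the serotonin valves, and the log2 fold change of 0.44 ± 0.17 had an adjusted p of 0.207.

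Matrix processing enzymes cut and remodel these fibres, and 16 of 35 listed genes were tested. ADAMTS1, a protease that cleaves versican, was the member that rose, by 0.63 ± 0.13 (adjusted p = 0.0289), from 170.3, 170.2, 215, 200.03 and 161 CPM in the controls to 353, 266, 226, 314 and 263 CPM in the serotonin valves. The groups did not overlap, 0 members fell, DESeq2 called 1 higher and 0 lower, and 5 were higher and 0 lower at an unadjusted p under 0.05. The shares among tested genes with a symbol were 1.79% called higher by edgeR and 13.7% higher at an unadjusted p under 0.05. TIMP1, an inhibitor of matrix metalloproteinases, had a log2 fold change of 0.63 (adjusted p = 0.0713). Of the 17 tested proteoglycan and hyaluronan genes, of 32 listed, edgeR and DESeq2 each called 0, and 1 was higher and 0 lower at an unadjusted p under 0.05. Their median of 0.08 became -0.07 without controls 1 and 4 and 0.17 without control 3. The small proteoglycan genes LUM and DCN had log2 fold changes of 0.40 and 0.19 (adjusted p = 0.249 and 0.534). HAPLN1, whose product links hyaluronan to proteoglycans, had 0.36 ± 0.31 (adjusted p = 0.609).

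Calls of matrix genes were lost with several of the valves. COL14A1 had an adjusted p of 0.104, 0.0562, 0.0615, 0.0592, 0.0636 and 0.0552 without control 2, control 4, control 5, serotonin 1, serotonin 2 and serotonin 4. For MGP the values without those 6 valves were 0.121, 0.0871, 0.0845, 0.0878, 0.0722 and 0.0864, and for SVEP1 0.104, 0.0561, 0.0615, 0.0592, 0.0545 and 0.0545. Without controls 1 and 4 together the adjusted p of COL14A1, SVEP1, ITIH5 and ADAMTS1 was 0.0834, 0.0622, 0.0709 and 0.0615, and that of MGP was 0.0146. ITIH5, FBLN7 and ADAMTS1 lost their calls without control 2 (0.0710, 0.106 and 0.104), control 4 (0.0561, 0.0699 and 0.0561), control 5 (0.0615, 0.0709 and 0.0615) or serotonin 1 (0.0592, 0.0781 and 0.0878). With surrogate variables in limma-voom COL14A1, ITIH5 and ADAMTS1 lost their calls (0.0691, 0.0941 and 0.0757). Calls were also lost without serotonin 2 for ITIH5 and ADAMTS1 (0.0636 for each), without serotonin 4 for FBLN7 and ADAMTS1 (0.0656 and 0.0552), and without serotonin 5 (0.0556) or controls 1 and 4 (0.0529) for FBLN7.

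**Figure D3:**
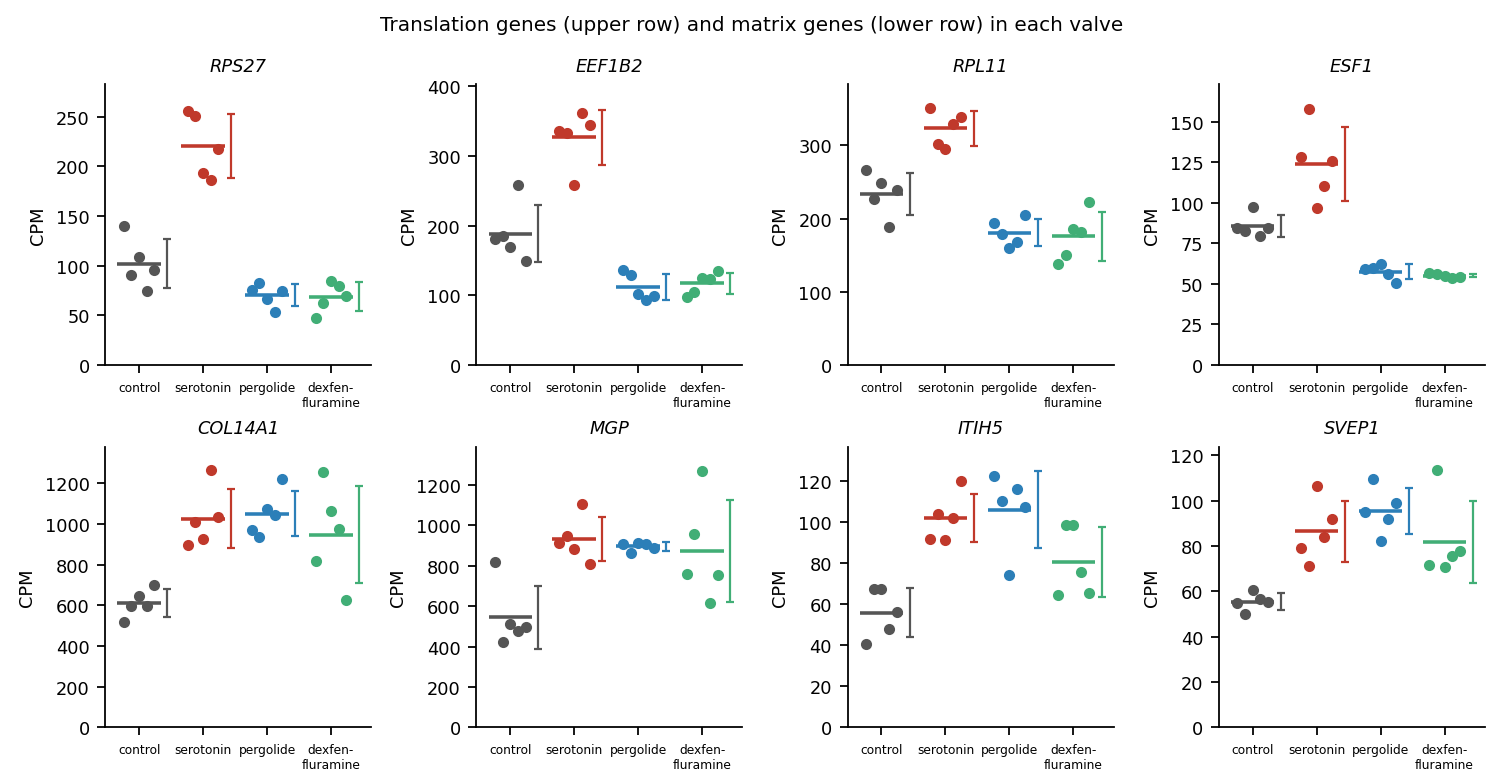
Each point is the CPM of a gene in a valve, for 5 valves in each of the 4 groups, the horizontal line is the mean and the bar at its side is the SD. In RPS27, EEF1B2, RPL11 and ESF1 the serotonin valves lie above both drug groups, while in COL14A1, MGP, ITIH5 and SVEP1 they lie among the drug valves and above most or all controls.

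Circadian clock genes form a loop in which ARNTL and CLOCK switch on PER, CRY and NR1D genes, whose products switch the loop off again. Of 26 listed genes, 10 were tested, 1 rose and 2 fell, beside 1.79% and 0.199% of tested genes with a symbol, and 3 were higher and 3 lower at an unadjusted p under 0.05, beside 13.7% and 6.28%. ARNTL was at 20.9, 5.42, 22.6, 20.6 and 9.20 CPM in control valves 1 to 5 and at 2.33, 2.22, 1.17, 2.41 and 4.78 CPM in serotonin valves 1 to 5. Controls 2 and 5 were low within their group and still above each serotonin valve. Its log2 fold change was -2.59 ± 0.62 (adjusted p = 0.0449). NFIL3, a repressor in the clock's second loop, was at 10.8, 3.79, 2.98, 5.29 and 5.98 CPM in the controls and at 0.699, 2.22, 0.877, 1.61 and 1.40 CPM in the serotonin valves. Again all serotonin valves were lower, with a log2 fold change of -2.04 ± 0.44 (adjusted p = 0.0309). NR1D2, which represses ARNTL, was at 102, 234, 269, 143 and 247 CPM in the controls and at 404, 288, 399, 282 and 450.3 CPM in the serotonin valves. All serotonin valves were higher, controls 1 and 4 were the lowest, and NR1D2 rose by 0.87 ± 0.21 (adjusted p = 0.0449).

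CLOCK was at 76.5, 83.2, 82.5, 93.0 and 78.9 CPM in the controls and at 60.8, 68.0, 52.0, 67.8 and 76.7 CPM in the serotonin valves. Serotonin 5 reached control 1, and the log2 fold change was -0.35 (adjusted p = 0.131). The output genes and repressors HLF, PER1, CRY2 and CIART had log2 fold changes of 0.46, 0.39, 0.21 and 0.35 (adjusted p = 0.236, 0.477, 0.568 and 0.721), and RORA, which activates ARNTL, had 0.32 (0.268). The hour at which valves were taken is not used here, and its part in these values was not tested. The call of ARNTL held with control 3 left out, at an adjusted p just under 0.05. It was lost with each of the other 9 valves, with adjusted p-values up to 0.105 without serotonin 1. NFIL3 kept its call without control 1 (0.0412), control 3 (0.0194) or serotonin 3 (0.0455) and NR1D2 without control 1 (0.0484) or control 3 (0.0239), and among the other valves the values ran up to 0.0925 without serotonin 1 and 0.106 without control 2 or control 4. With surrogate variables in limma-voom the adjusted p of ARNTL, NFIL3 and NR1D2 was 0.193, 0.324 and 0.213. Without controls 1 and 4 edgeR's adjusted p of these genes was 0.13, 0.098 and 0.129. Over the alternatives the log2 fold change ran from -2.93 to -2.30 for ARNTL, from -2.27 to -1.07 for NFIL3 and from 0.50 to 1.00 for NR1D2.

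**Figure D4:**
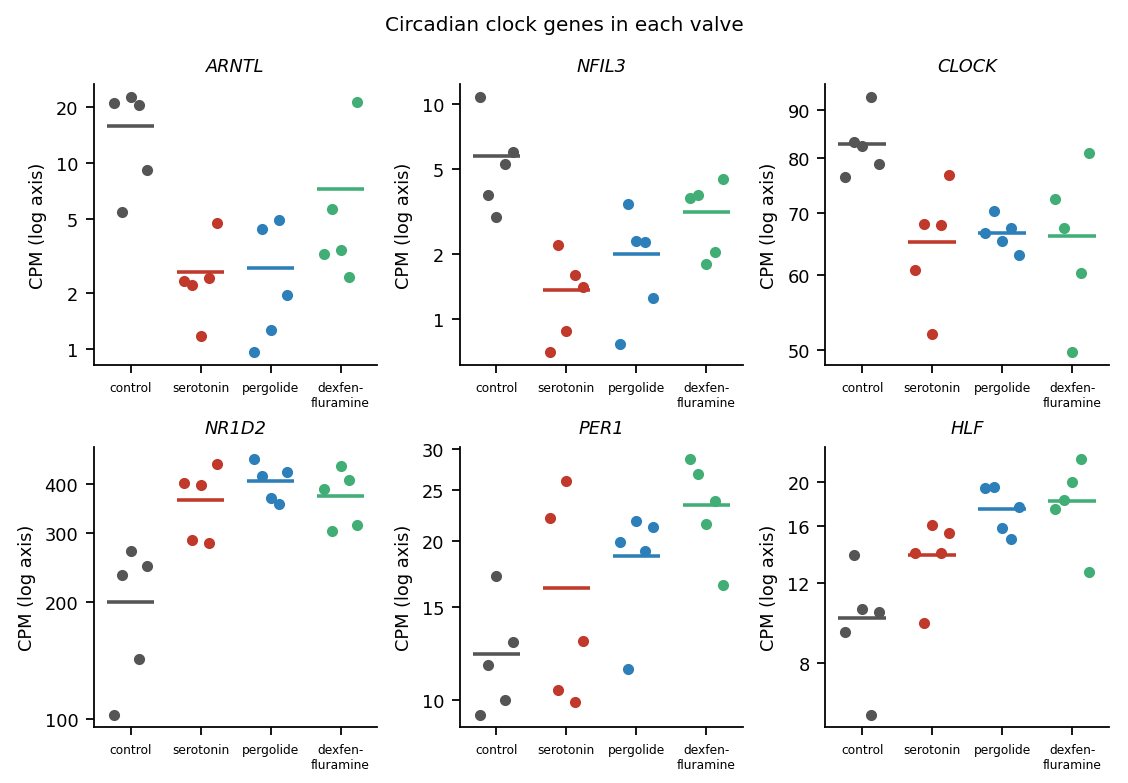
Each point is the CPM of a clock gene in a valve, on a log axis, for 5 valves in each of the 4 groups, and the line is the mean. ARNTL and NFIL3 are lower and NR1D2 is higher in every serotonin valve than in every control, and the drug valves overlap with the serotonin valves in all 6 genes.

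Genes that respond to or handle serotonin were tested in small number, since 5 of 26 listed genes had a symbol. The receptor gene HTR2B and the matricellular gene CTGF were not analysed here. Of tested genes with a symbol, edgeR called 1.79% higher and 0.199% lower, and 13.7% and 6.28% were so at an unadjusted p under 0.05. By edgeR 0 of the 5 were called, with 0 higher and 1 lower at an unadjusted p under 0.05, and DESeq2 called 0 higher and 1 lower. That gene was ALDH2, a mitochondrial aldehyde dehydrogenase that acts after monoamine oxidase. It was at 109, 71.8, 70.0, 158 and 143 CPM in the controls and at 69.7, 55.4, 39.5, 37.0 and 61.2 CPM in the serotonin valves. The groups just failed to touch, and the log2 fold change of -1.07 ± 0.27 had an adjusted p of 0.0553, or 0.0284 without control 3 and 0.0104 with DESeq2. MAOA, the monoamine oxidase that begins serotonin breakdown, was at 36.1, 33.3, 52.8, 30.0 and 40.96 CPM in the controls and at 36.1, 29.8, 48.5, 43.7 and 28.7 CPM in the serotonin valves, which overlapped throughout. Its log2 fold change was -0.06 ± 0.19 (adjusted p = 0.923). The receptor HTR4 had 0.03 ± 0.35 (adjusted p = 0.980), the transglutaminase TGM2, which can attach serotonin to proteins, had -0.01 ± 0.12 (0.992), and the low-affinity carrier SLC22A3 had 0.94 on few counts (0.552).

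Downstream of the 2B receptor, in the Gq and ERK pathway, 11 of 41 listed genes were tested. With edgeR 0 were called and with DESeq2 0 higher and 1 lower. At an unadjusted p under 0.05 0 were higher and 1 lower, beside 13.7% and 6.28% of tested genes with a symbol. The protein kinase C gene PRKCA had a log2 fold change of -0.28 (adjusted p = 0.452). In TGF-beta and BMP signalling 22 of 42 listed genes were tested, edgeR and DESeq2 called 0, and 3 were higher and 0 lower at an unadjusted p under 0.05, beside 13.7% and 6.28% of tested genes with a symbol. BMP2, a ligand, had a log2 fold change of 0.96 (adjusted p = 0.179) and SMAD7, an inhibitor of the pathway, 0.69 (0.185).

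Energy metabolism and muscle genes leaned downwards without a call. Of the 24 cardiomyocyte markers 23 had a log2 fold change below 0, with a median of -0.41, and edgeR and DESeq2 called 0. At an unadjusted p under 0.05 0 were higher and 1 lower, beside 13.7% and 6.28% of tested genes with a symbol. MYBPC3, a thick filament protein, was that gene, with -0.84 ± 0.39 (adjusted p = 0.294), and the oxygen store MB had -1.10 ± 0.57 (0.357). Nuclear genes of cellular respiration showed 32 of 43 tested below 0, of 85 listed, and a median of -0.26. For these edgeR and DESeq2 called 0, and 0 were higher and 5 lower at an unadjusted p under 0.05, beside 13.7% and 6.28% of tested genes with a symbol. UQCRC1, of complex III, had a log2 fold change of -0.70 (adjusted p = 0.277). With surrogate variables in limma-voom the medians of these groups were 0.07 and 0.15, and 4 respiration genes were called higher, and without controls 1 and 4 the medians were -0.12 and -0.03. Without control 3 the respiration median was -0.45, with 1 gene called lower. The 13 mitochondrially encoded genes had a median of -0.06, which was -0.25 without serotonin 2 and 0.36 without controls 1 and 4. With surrogate variables it was 0.44, and 6 were called higher. EdgeR and DESeq2 called 0 of the 13, and 0 were under an unadjusted p of 0.05. The part of cardiac muscle in the metabolic values was not tested.

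Glycolysis and glucose use had 15 of 18 tested genes below 0, of 39 listed, with a median of -0.38, which was -0.08 with surrogate variables in limma-voom and -0.25 without controls 1 and 4. By edgeR 0 were called, or 4 lower without control 3 and 1 lower without serotonin 5, by DESeq2 0 higher and 1 lower, and 2 were higher and 6 lower at an unadjusted p under 0.05, beside 13.7% and 6.28% of tested genes with a symbol. ENO1, the glycolytic enolase, was at 116, 114, 102, 109 and 112 CPM in the controls and at 81.5, 83.6, 95.6, 92.5 and 102 CPM in the serotonin valves. Serotonin 5 and control 3 nearly met, and the log2 fold change was -0.28 ± 0.07 (adjusted p = 0.0553, or 0.0352 without control 3 and 0.0483 without serotonin 5). The pyruvate kinase gene PKM had -0.50 (adjusted p = 0.188), and PDK3, which inhibits pyruvate dehydrogenase, had 0.55 (0.172). Fatty acid and lipid metabolism had 17 of 24 tested genes below 0, of 48 listed, a median of -0.21, 0 calls with edgeR and DESeq2, and 1 higher and 2 lower at an unadjusted p under 0.05. That median was -0.02 with surrogate variables, -0.04 without controls 1 and 4 and -0.11 without control 4. Among 9 tested genes of AMPK and energy sensing, of 26 listed, edgeR called 0, DESeq2 called 1 higher, and 1 was higher and 0 lower at an unadjusted p under 0.05. That was CAMKK1, an upstream kinase of AMPK, with a log2 fold change of 0.82 ± 0.21 and all serotonin valves above all controls (adjusted p = 0.0549). PRKAA1, the catalytic subunit of AMPK, had -0.15 (adjusted p = 0.359).

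Adipocyte markers leaned upwards, without a call by edgeR. The 11 tested genes, of 20 listed, summed to 149.7, 116, 96.9, 221 and 109 CPM in control valves 1 to 5 and to 269, 123, 186, 203 and 179.8 CPM in serotonin valves 1 to 5, with the receptor gene ADIPOR2 at 36.6% of the sum. Serotonin 2 lay among the controls and control 4 above all but serotonin 1. The median log2 fold change was 0.80, or 1.22 without controls 1 and 4, edgeR called 0, DESeq2 called 2 higher and 0 lower, and 5 were higher and 0 lower at an unadjusted p under 0.05, beside 13.7% and 6.28% of tested genes with a symbol. PPARG, the master regulator of fat cell formation, was at 3.25, 2.17, 2.28, 5.59 and 2.53 CPM in the controls and at 15.8, 3.48, 8.18, 9.39 and 8.15 CPM in the serotonin valves. Only serotonin 2 fell within the range of the controls, and the log2 fold change was 1.57 ± 0.52 (adjusted p = 0.140). THRSP and KLB, which act in fat synthesis and in the response to FGF21, had 2.25 and 2.04 (adjusted p = 0.109 and 0.115).

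Other cell types had few genes with a symbol. Interstitial cell and fibroblast markers had a median of 0.28, 0 calls by edgeR and DESeq2, and 5 of 14 higher at an unadjusted p under 0.05, beside 13.7% of tested genes with a symbol. Of 6 smooth muscle and myofibroblast markers, of 10 listed, edgeR called 0 and DESeq2 1 higher, with 1 higher and 1 lower at an unadjusted p under 0.05. CALD1, which binds actin, had 0.41 (adjusted p = 0.0733), and MYOCD, a regulator of smooth muscle genes, had -0.73. The median of -0.18 was 0.16 with surrogate variables and -0.33 without control 3. The 2 endothelial markers tested were EMCN, at 0.34, and PECAM1, at 0.10, and 5 of the 19 macrophage and leukocyte markers were tested, 3 above 0 and 2 below, with a median of 0.10 that ran from -0.04 without serotonin 1 to 0.34 without control 5. Among them C1QA had 0.93 (adjusted p = 0.262), or 0.43 without serotonin 5, and LAPTM5 -0.13 (0.644). In both groups edgeR and DESeq2 called 0, and 0 endothelial and 1 leukocyte marker had an unadjusted p under 0.05. No erythroid marker had a symbol, and HAPLN1 was the only chondrocyte marker with one.

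Immune and interferon genes numbered 23 tested of 40 listed. Their median of 0.08 was 0.02 in the 10 valves alone and 0.13 without control 5. EdgeR called 0 and DESeq2 1 higher and 1 lower. At an unadjusted p under 0.05, 4 were higher and 2 lower, beside 13.7% and 6.28% of tested genes with a symbol. CCL21, a chemokine that draws lymphocytes and dendritic cells, was at 3.97, 8.40, 8.60, 9.71 and 6.21 CPM in the controls and at 13.3, 19.6, 25.7, 14.2 and 22.5 CPM in the serotonin valves. All serotonin valves were higher, with a log2 fold change of 1.34 ± 0.33 (adjusted p = 0.0505, or 0.0439 without control 3 and 0.00836 with DESeq2). Heat shock proteins and chaperones had a median of -0.21, with 17 of 23 tested genes below 0, of 33 listed, and the median was -0.08 with surrogate variables and -0.11 without controls 1 and 4. By edgeR and DESeq2 0 were called, with 0 higher and 7 lower at an unadjusted p under 0.05, beside the same shares. FKBP4, a partner of HSP90, had -0.47 (adjusted p = 0.143).

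Among the falls outside the clock, NRXN3 of the Schwann and neural markers, a synaptic adhesion gene, was at 4.69, 2.98, 3.51, 3.24 and 5.52 CPM in the controls and at 1.86, 0.633, 2.05, 0.804 and 0.281 CPM in the serotonin valves. The groups were apart, and the log2 fold change was -1.77 ± 0.35 (adjusted p = 0.0285). It was the only call among 7 tested markers of that kind, while 1.79% of tested genes with a symbol were called higher and 0.199% lower. SNORA68, a small nucleolar RNA that guides pseudouridine formation in ribosomal RNA, was at 9.02, 9.48, 4.39, 11.5 and 4.14 CPM in the controls and at 1.86, 4.11, 2.92, 3.75 and 2.81 CPM in the serotonin valves. Serotonin 2 came within reach of control 5 without passing it, and the log2 fold change was -1.29 ± 0.28 (adjusted p = 0.0321). Of 37 tested small nucleolar and Cajal body RNAs it was the 1 that fell, beside 0.199% of tested genes with a symbol, and 0 rose with edgeR or DESeq2. At an unadjusted p under 0.05 0 of the 37 were higher and 2 lower, beside 13.7% and 6.28% of tested genes with a symbol. The median of the 37 was -0.11, or 0.08 without controls 1 and 4 and -0.28 without serotonin 2. ATP6V1F, a subunit of the proton pump of lysosomes, was at 17.7, 17.6, 14.7, 15.3 and 13.6 CPM in the controls and at 5.82, 11.7, 9.64, 9.65 and 10.7 CPM in the serotonin valves. No serotonin valve reached a control, and the log2 fold change was -0.74 ± 0.18 (adjusted p = 0.0449). The adjusted p of NRXN3, SNORA68 and ATP6V1F rose to 0.0816, 0.106 and 0.126 without control 2, and their calls were also lost without control 4 (0.0561, 0.0812 and 0.0785), control 5 (0.0615 for each), serotonin 1 (0.0592, 0.0949 and 0.108), serotonin 2 (0.0685, 0.0682 and 0.0685) or serotonin 4 (0.0552, 0.0552 and 0.0800). SNORA68 and ATP6V1F lost theirs without serotonin 5 as well (0.0658 and 0.0651), and ATP6V1F without control 1 (0.0558) or serotonin 3 (0.0568), so that it kept its call without control 3 alone.

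Rises outside the lists included EPB41, a protein of the membrane skeleton, with 0.56 ± 0.11 (adjusted p = 0.0285), and the histone gene HIST2H2AA4, with 0.74 ± 0.16 (adjusted p = 0.0331), each with all serotonin valves above all controls. Histone genes also have near-identical copies, so the latter is uncertain. CPED1, whose function is little known, rose by 0.64 ± 0.14 without overlap (adjusted p = 0.0321). Without control 2 the adjusted p of EPB41, HIST2H2AA4 and CPED1 was 0.0957, 0.106 and 0.106, and their calls were also lost without control 4 (0.0561, 0.0763 and 0.0857), control 5 (0.0615, 0.0618 and 0.0615), serotonin 1 (0.0737, 0.0779 and 0.0878) or serotonin 2 (0.0685, 0.0841 and 0.0636), and for the latter 2 without serotonin 4 (0.0552 and 0.0831). Chosen after the values were seen, CD63, a tetraspanin of late endosomes and exosomes, was at 109, 97.5, 99.5, 107 and 95.5 CPM in the controls and at 148, 131, 140.0, 132 and 148 CPM in the serotonin valves. Both groups were narrow and apart, and CD63 rose by 0.46 ± 0.07 (adjusted p = 0.0132). Like all other genes, CD63 was not called in the 10 valves alone or without control 2, control 5 or serotonin 1. With the replicate block only RPS27 was called. Of genes without a symbol, also chosen after the values were seen, ENSOCUG00000018201 rose by 1.88 ± 0.36 (adjusted p = 0.0285), with 4 of 5 serotonin valves above the highest control, control 1. ENSOCUG00000010265 had a log2 fold change of -0.82 ± 0.17 (adjusted p = 0.0285), lower in all serotonin valves.

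**Figure D5:**
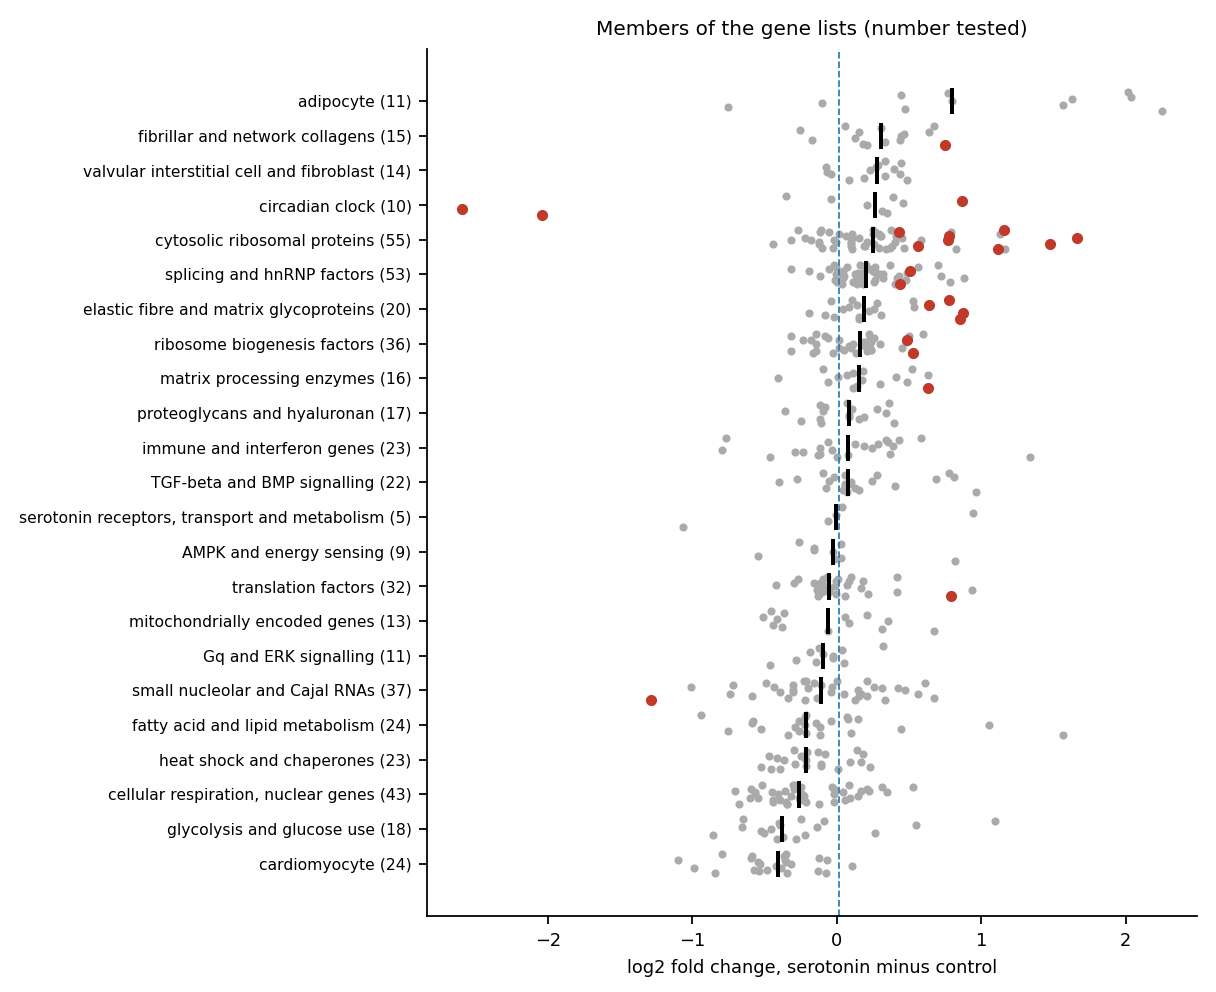
Each point is a tested gene of a list, placed by its log2 fold change, serotonin minus control, with the number of tested genes beside the list's name, and lists are ordered by their median, drawn as a black tick. Red points are called genes, the dashed line is the median of all tested genes, and called genes sit mostly in the lists of ribosomal proteins, matrix glycoproteins and the clock.

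A direct contrast of the 5 serotonin valves with the mean of the 10 drug valves, in the same fit, called 2957 of 8683 genes (34.1%), 1595 higher (18.4%) and 1362 lower (15.7%) with serotonin. It shares the serotonin valves with the comparison above, and the values of each are given side by side. Among the drug valves dexfenfluramine 3 stood apart, with a TMM factor of 1.72, 3.01% of its counts on mitochondrially encoded genes and a cardiomyocyte sum of 13562 CPM, while the other 9 had factors up to 1.35, shares from 5.24% and sums from 52503 CPM. Without it 2993 genes were called, 2811 of them shared. As a group the drug valves also leaned away from the serotonin valves in make-up, with overlap. Their TMM factors were 0.990 to 1.72 against 0.659 to 1.11, and their genes with a count 11049 to 11291 against 10780 to 11063. Shares on the 13 listed mitochondrially encoded genes were 3.01 to 8.21% against 8.01 to 10.4%. The part of this make-up in the calls was not tested. RPS27 was 1.66 higher on the log2 scale than in drug valves (adjusted p = 1.23e-08), against 1.12 over controls, with 70.6 ± 11.01 CPM (SD, n = 5) under pergolide and 68.8 ± 14.9 CPM under dexfenfluramine, so all 5 serotonin valves lay above all 10. EEF1B2 was 1.51 higher (adjusted p = 4.87e-09), RPL11 0.86 (9.62e-07) and ESF1 1.13 (3.38e-09), also above all drug valves in all 5. Of tested genes with a symbol 57.5% were called in this contrast, 30.5% higher and 27.1% lower. The ribosomal protein list split, with 20 genes higher and 22 lower of 55. Splicing factors had 40 of 53 higher and 9 lower, and ribosome biogenesis factors 26 of 36 higher and 4 lower.

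Some genes called against controls were not called against the drug valves. COL14A1 had a log2 difference of 0.04 ± 0.13 from the drug valves (adjusted p = 0.829), MGP 0.08 ± 0.15 (0.723), SVEP1 -0.03 ± 0.11 (0.848) and ITIH5 0.14 ± 0.14 (0.462). For ARNTL, NFIL3 and NR1D2 the differences were -0.80 ± 0.60, -0.91 ± 0.42 and -0.10 ± 0.18 (adjusted p = 0.330, 0.0998 and 0.7101). A p-value that misses the threshold does not show that the values did not differ. COL1A2 was lower with serotonin than with the drugs, by a log2 difference of -0.50 ± 0.15 (adjusted p = 0.0129), with means of 778 ± 141 CPM (SD, n = 5) for serotonin, 1077 ± 199.6 CPM for pergolide and 1119.6 ± 249 CPM for dexfenfluramine. Of the 5 serotonin valves, serotonin 4 alone reached the range of the drug valves. COL1A2 lost this call without serotonin 2 (0.0510) and with surrogate variables in limma-voom (0.287). Interstitial cell and fibroblast markers had 6 of 14 genes lower and 0 higher than in drug valves, with a median of -0.28, collagens 8 of 15 lower and 1 higher (-0.33), and elastic fibre proteins and matrix glycoproteins 9 of 20 lower and 1 higher (-0.40). With surrogate variables the numbers lower were 3, 3 and 5 and the medians -0.09, -0.12 and -0.14. The marker list and the collagen list share genes, COL1A2 and COL3A1 among them, so their counts are not separate. Of tested genes with a symbol edgeR called 27.1% lower and 30.5% higher in this contrast. In other lists 2 of 2 endothelial markers were higher (median 0.69), 11 of 13 mitochondrially encoded genes (1.20) and 2 of 24 cardiomyocyte markers (0.28). Of 5 macrophage and leukocyte markers 3 were lower (-0.61). With surrogate variables 0 endothelial markers were called (0.14). ADAMTS1 was higher by 0.96 ± 0.11 (adjusted p = 7.69e-07), with every serotonin valve above every drug valve. ENO1 was lower by -0.85 ± 0.06 (adjusted p = 3.95e-09), NRXN3 by -1.79 ± 0.31 (0.000150) and ALDH2 by -1.04 ± 0.24 (0.00235), and of these ENO1 and NRXN3 were below all 10 drug valves in all 5 serotonin valves. With surrogate variables NRXN3 and ALDH2 were not called in this contrast (adjusted p = 0.0632 and 0.404).

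With 5 valves a group, the number of called genes depended on which valves were included, as the counts without single valves show. Most genes of serotonin signalling and most endothelial genes had no symbol, so nothing is said of them.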

How the data were processed

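Counts of reads per Ensembl gene were used as the authors deposited them, without normalization. Their columns carry a letter and a number. The letter w was read as water, for the control valves, and s as serotonin, which is not spelled out there. The submitters' processing notes name TopHat2 2.1.1, Picard and HTSeq. The genome was oryCun2, and the annotation release, strand setting and handling of reads with several positions are not given, so antisense genes cannot be told from their partners. Of 23669 genes, 8683 passed filterByExpr and were fitted in all 20 valves with edgeR 4.0.16 (R 4.3.3), TMM normalization, the quasi-likelihood test and Benjamini-Hochberg adjustment at 0.05. Log2 CPM used a prior count of 2, and SE is of the log2 fold change. Symbols come from the study's list of differentially expressed genes, and 152 shortened identifiers were matched where only 1 gene fitted. Total counts of 3247091 to 5921025 make genes of few counts imprecise.

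Genes were named by a rule. It took up to 15 rises and 10 falls that were called, had a symbol, averaged 1 or more in log2 CPM and whose groups did not overlap, the 3 of smallest p in each list, all tested serotonin and clock genes, genes the study measured by other means, and the 5 with most counts. Some genes that the rule names are not described here. Members and lists were chosen with earlier results of these data known.

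Alternatives were DESeq2 1.42.0, limma-voom (limma 3.58.1) without and with the 4 surrogate variables of svaseq (sva 3.50.0), DESeq2's size factors, no filter, the 10 valves alone, the replicate number as a block, and each valve left out. Chosen after seeing the data were leaving out controls 1 and 4, leaving out dexfenfluramine 3, leaving out single valves in the contrast with drugs, and computing library sizes without ENSOCUG00000029084. For the total count, leaving out ENSOCUG00000029084 was planned. Fits were tested on simulated data. Python 3.11.15, numpy 2.4.6, pandas 2.3.3 and matplotlib 3.10.9 made the plots and the checks of single valves.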

Additional observations from a re-analysis of the deposited data

Results flagged for a closer look

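In each group of 5 valves, the highest or lowest value was examined for a gap to its neighbour that is large for the range of the group. Of 270 groups of values of named genes, list levels and library measures, 11 had such a valve, while about 1 in 20 groups would by chance. They were 8 of 202 groups for named genes, 3 of 56 for list levels and 0 of 12 for library measures. No explanation was tested.

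Serotonin 3 had 258 CPM of EEF1B2, while the other serotonin valves had 334 to 361. Control 1 had 302 CPM of RPS15A (other controls 196 to 225) and 817 CPM of MGP (421 to 509). For ESF1, control 3 was at 97.4 CPM and the other controls at 79.7 to 84.8. Serotonin 2 had 26.9 CPM of FBLN7, below the 43.6 to 49.6 of its group. Serotonin 5 stood out in 3 genes, with EIF2S3 at 47.5 CPM (others 43.0 to 43.7), BMP2 at 5.90 CPM (2.80 to 3.48) and IFNGR1 at 78.9 CPM (98.5 to 99.6).

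For mean log2 CPM of a list, control 3 was at 5.80 for glycolysis and glucose use (other controls 6.37 to 6.59), serotonin 2 at 7.002 for elastic fibre and matrix glycoproteins (7.23 to 7.28), and control 4 at 5.90 for endothelial markers (6.70 to 6.99).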

How the results depend on the processing

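Counts of genes called against controls, list medians and named genes were recomputed under 20 alternatives, as far as a gene was tested in them, the count against drug valves under 18 and the total count under 1. Over 97 of the named genes, 1588 recomputed fold changes kept their direction and their side of the threshold, 275 kept direction and lost a call, 45 gained a call and 24 changed sign. None of the genes that changed sign was called. The cause of the differences was not tested, apart from those that follow from fewer valves.

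DESeq2 called 234 genes, 182 higher and 52 lower, and at least 1 gene in 14 of the 20 pathway lists instead of 9. With DESeq2's size factors in edgeR 53 were called, 44 of them higher. Without a filter on low counts 48 were called, 40 higher and 8 lower. The 10 valves alone gave 0 called genes by edgeR, 0 higher, 0 lower, in 0 lists, with 1117 at an unadjusted p under 0.05 and a smallest adjusted p of 0.0696. Without controls 1 and 4, 70 genes were called, 8 of them lower, with calls in 5 lists and for 5 of the 20 named calls without overlap. Without dexfenfluramine 3, 161 were called, 34 of them lower, with calls in 14 lists and for all 20 named calls. Without ENSOCUG00000029084 in the library sizes 37 were called, 28 higher, 13 of the 20 named calls held, and the median total fell from 4533300 to 2824920.5. Limma-voom with surrogate variables called 7 of the 20, and 1604 genes between serotonin and drug valves instead of 2957.

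With 1 valve left out in turn, the count of called genes ran from 0 to 257, higher genes from 0 to 171, lower genes from 0 to 86, lists with a call from 0 to 14 and named calls from 0 to 20. The replicate block left 1 called gene, 1 higher and 0 lower, in 1 list and 1 named call, with 1291 at an unadjusted p under 0.05. The count against drug valves ran from 2525 to 3089 with 1 control or serotonin valve left out, and drug valves other than dexfenfluramine 3 were not left out. Same-numbered valves had correlations of -0.14 to 0.22. Of the control valves 0 correlated best with the serotonin valve of their number, of the serotonin valves 2 with the control of theirs, and no number held both ways. Whether the numbers pair the valves was not tested.

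Signs changed with surrogate variables for UQCRC1 (0.032), COX1 (0.021), PLN (0.14), PECAM1 (-0.10), CDH19 (0.19), TGM2 (0.10), HTR4 (-0.015) and ENSOCUG00000029084 (0.21), and without controls 1 and 4 for PECAM1 (-0.15), HAPLN1 (-0.014), CDH19 (0.010) and TGM2 (0.010). With single valves left out, MAOA ran from -0.17 to 0.088, PECAM1 from -0.084 to 0.19, TGM2 from -0.071 to 0.070 and HTR4 from -0.13 to 0.17. RPL37A and NRXN3 had few counts, and the parts of depth and of the spread between valves in their values were not tested.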
